A study of Saccharomyces cerevisiae with 6 samples.

Results

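The comparison was between yeast that carried a catalytically inactive Rrp6 and yeast that carried the wild-type (WT) protein, and its members were the 4 libraries labelled for these 2 alleles, of 6 libraries in the series. In all strains the chromosomal RRP6 and MTR4 genes were deleted in a BY4741/4743 background, and MTR4 was supplied from the plasmids pRS416 and pRS415. A further plasmid, pRS413, carried RRP6 in WT, the D238N allele in Rrp6 exo-, or no insert in rrp6Δ, so the strains differed in 1 plasmid insert. Each strain was represented by 2 clones grown in medium lacking histidine, leucine and uracil to mid-log phase, and ribosome-depleted total RNA was sequenced. The clones bore the numbers 1 and 2 in every strain, the libraries were compared within a number, what a number stands for (a day, a batch or a transformation) is not given in the sources used here, and the rrp6Δ libraries entered the fit and are given beside the results. With 2 clones of each strain the p-values measure the spread that remains between these libraries once strain and number are fitted. A difference between the numbers 1 and 2 that the strains share is left out of that spread, however large.

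Rrp6 is a distributive 3′ to 5′ exoribonuclease that binds the nuclear form of the RNA exosome, whose other exoribonuclease, Dis3, is processive. The exosome trims precursors of small nucleolar RNAs (snoRNAs) and ribosomal RNA and degrades short-lived nuclear transcripts, and it receives many of them from the TRAMP complex, which joins the helicase Mtr4 to a poly(A) polymerase (Trf4 or Trf5) and an RNA-binding protein (Air1 or Air2). The Nrd1-Nab3-Sen1 complex ends transcription of snoRNA genes and of many unstable transcripts and hands the RNA to the same enzymes. The D238N change removes an aspartate of the Rrp6 active site, so the protein is made without its exoribonuclease activity.

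The values are read counts per gene that the authors divided by 1 size factor per library (scaled counts), for 6277 genes, with 34188755 to 39501874 reads on genes per library. RRP6 itself had scaled counts of 19503 and 21626 in WT and 18538 and 21173 in Rrp6 exo-, which overlap (log2 difference -0.05, SE 0.16, adjusted p = 0.853), against 4.17 and 8.33 in rrp6Δ. The plasmid-borne MTR4 also overlapped, with 69983 and 58489 in WT and 77818 and 66605 in Rrp6 exo- (log2 difference 0.17, SE 0.11, adjusted p = 0.326). HIS3, the marker of the plasmid that carries the RRP6 allele, was not equal between the strains, at 56110.02 and 46154 in WT, 25792 and 28104 in the Rrp6 exo- libraries and 32581 and 36525 in the rrp6Δ libraries. It was lower in both Rrp6 exo- libraries than in both WT libraries (log2 difference -0.92, SE 0.12, adjusted p = 0.00617), and what part this has in the other differences was not tested.

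With the library number in the fit, 358 genes (5.70%) were higher and 442 (7.04%) were lower in Rrp6 exo- than in WT, at an adjusted p under 0.05 (limma, Benjamini-Hochberg), together 12.7% of the genes tested. These limma calls rest on the pairing of the libraries: without the number in the fit 7 genes passed (0.112%). Of them 4 were higher (SNR73, YAR073W, YDR042C and YPL222C-A) and 3 lower (HFM1, GYP5 and YNL040W). By DESeq2 520 genes passed without the number, against 830 with it. The calls also depend on which libraries enter the fit. Fewer genes passed without either WT library or either rrp6Δ library, and more passed without either Rrp6 exo- library. Leaving out an rrp6Δ library does not change the fitted difference of Rrp6 exo- from WT, so the number of calls also turns on the estimate of the spread. The total of the scaled counts was lower in Rrp6 exo- than in WT within each number. Rescaling all libraries to the same total moved the median difference of all genes from 0.01 to 0.12 and the calls to 630 higher and 197 lower, or 76.2% higher against 44.8%, and PHO11, ZRT2, RPS22B, LEU2, ERG26, GLK1, GLR1 and FLO9, named below, then did not pass. Both Rrp6 exo- libraries lay above both WT libraries for 1364 genes (21.7%) and below them for 1474 (23.5%). A lack of overlap between the strains, given for single genes below, was thus common over all genes. The counts given for gene lists below stand against the shares of all genes, 5.70% higher and 7.04% lower. All differences are on the log2(scaled count + 1) scale.

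**Figure D1:**
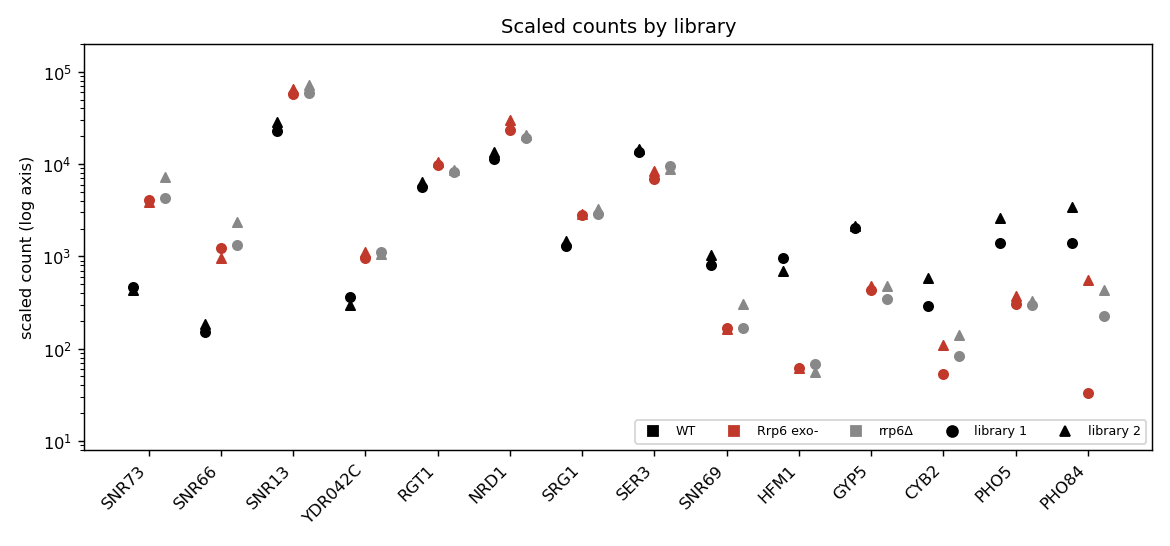
Scaled counts (log axis) of 14 genes in the 6 libraries. Each point is 1 library, with circles for library 1 and triangles for library 2; WT is black, Rrp6 exo- red and rrp6Δ grey. SNR73, SNR66, SNR13, YDR042C, RGT1, NRD1 and SRG1 were higher in both Rrp6 exo- libraries than in both WT libraries, and SER3, SNR69, HFM1, GYP5, CYB2, PHO5 and PHO84 lower.

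The box C/D snoRNAs guide 2′-O-methylation of ribosomal RNA and are recognised by a C box (TGATGA in the gene) near the 5′ end and a D box (CTGA) near the 3′ end. The genes of 5 of them, which had large differences in both directions, are shown as RefSeq gives them for the R64 build, with the first TGATGA and the last CTGA in capitals. The 4 that were higher in Rrp6 exo- come first and SNR69, which was lower, comes last.
SNR73: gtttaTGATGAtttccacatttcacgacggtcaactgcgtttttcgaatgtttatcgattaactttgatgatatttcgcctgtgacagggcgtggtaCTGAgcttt
SNR66: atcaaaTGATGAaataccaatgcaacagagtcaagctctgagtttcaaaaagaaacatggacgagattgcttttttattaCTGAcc
SNR47: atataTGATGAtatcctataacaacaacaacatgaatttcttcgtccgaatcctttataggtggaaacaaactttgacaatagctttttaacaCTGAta
SNR13: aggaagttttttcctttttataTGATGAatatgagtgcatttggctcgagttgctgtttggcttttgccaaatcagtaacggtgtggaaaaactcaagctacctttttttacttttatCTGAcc
SNR69: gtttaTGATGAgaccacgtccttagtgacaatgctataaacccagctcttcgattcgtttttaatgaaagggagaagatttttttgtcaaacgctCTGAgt
They lie at chrXIII:298307-298412 (plus strand), chrXIV:586090-586175 (plus), chrIV:541602-541700 (minus), chrIV:1402919-1403042 (plus) and chrXI:364776-364876 (plus). None of the 5 overlaps another annotated gene on its own strand. Rising and falling members share both boxes, and the genes are from 86 to 124 bases long.

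Box C/D snoRNA genes moved in both directions. Of 31 listed, 7 rose (22.6%, against 5.70% of all genes), 4 fell (12.9%, against 7.04%) and 20 did not pass. Their median difference was 0.00 (0.01 over all genes). SNR73 had scaled counts of 459.7 and 437 in WT and 4111 and 3881 in Rrp6 exo-, 8.90-fold higher (log2 difference 3.15, SE 0.18, adjusted p = 0.000414). All Rrp6 exo- values lay far above the WT values, and the rrp6Δ libraries, at 4331 and 7203, were higher still. SNR66 had 153 and 185 in WT and 1235 and 950.5 in Rrp6 exo- (log2 difference 2.68, SE 0.24, adjusted p = 0.0015), again with no overlap and with 1319 and 2358 in rrp6Δ. SNR13, which gave many more reads, had 22713 and 28678 in WT and 57792 and 64469 in Rrp6 exo- (log2 difference 1.26, SE 0.091, adjusted p = 0.000806), so its rise was 2.39-fold and both values of each strain kept apart.

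Some of the rising snoRNA genes had few reads. SNR47 had 29.5 and 17.7 in WT and 109 and 108 in Rrp6 exo- (log2 difference 2.20, SE 0.34, adjusted p = 0.0121), and SNR72, which lies downstream of SNR73 in the same snoRNA cluster, had 30.5 and 30.2 in WT against 119 and 91.4 (log2 difference 1.75, SE 0.30, adjusted p = 0.0147). For both genes the strains did not overlap. SNR41 had 0 and 2 reads in WT and 20 and 24 in Rrp6 exo- (adjusted p = 0.0078), and SNR58 had 1 and 0 in WT and 19 and 20 in Rrp6 exo- (adjusted p = 0.00972). At this depth their fitted differences depend on the pseudocount, so only the reads are given.

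SNR69 went the other way. Its scaled counts were 810.4 and 1023 in WT and 166 and 162 in Rrp6 exo-, 5.52-fold lower (log2 difference -2.47, SE 0.21, adjusted p = 0.00129), with 167 and 307 in rrp6Δ. Both mutant strains were below WT in every library. The other C/D genes that fell, SNR4, SNR70 and SNR190, had smaller differences (-0.81, -0.64 and -0.59), SNR190 overlapped between the strains, and all 3 calls were lost without either WT library (adjusted p of 0.0631 to 0.202). With WT library 1 left out 1 C/D gene was lower, likewise with WT library 2 left out, while with Rrp6 exo- library 1 left out 8 were lower, and the count of higher genes ranged from 8 to 12 over the fits with 1 library left out.

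Some C/D genes had their highest values in rrp6Δ. SNR77, which lies upstream of SNR73 in its cluster, had scaled counts of 3.93 and 43.7 in WT, 47.6 and 30.1 in the Rrp6 exo- libraries and 354 and 1106 in the rrp6Δ libraries. Its values in WT and Rrp6 exo- overlapped (adjusted p = 0.229), whereas both rrp6Δ libraries were above them. SNR67 was also highest in rrp6Δ, with 32.4 and 147 in WT, 43.7 and 37.4 in the Rrp6 exo- libraries and 179 and 577 in the rrp6Δ libraries (adjusted p = 0.32 for Rrp6 exo- against WT). SNR55 had 174 and 215 in WT, 202 and 146 with the inactive protein and 406 and 743 without the protein (adjusted p = 0.708 for Rrp6 exo- against WT). For these 3 genes the difference between Rrp6 exo- and rrp6Δ had an adjusted p of 0.105 to 0.106, which misses the threshold. The U3 snoRNA SNR17A, the most abundant of the listed C/D genes, had 616276 and 761610.1 in WT and 533047 and 582594 in Rrp6 exo- (log2 difference -0.30, SE 0.24, adjusted p = 0.432).

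The box H/ACA snoRNAs guide pseudouridylation, and more of them fell than rose, as over all genes. Of 29 genes, 4 rose (13.8%, against 5.70% of all genes), 7 fell (24.1%, against 7.04%) and 18 did not pass. Their median difference was -0.24. SNR189 had 1516 and 1055 in WT and 3134 and 3151 in Rrp6 exo- (log2 difference 1.31, SE 0.12, adjusted p = 0.00162), and SNR161 had 568 and 555 in WT against 1037 and 1105 (log2 difference 0.93, SE 0.10, adjusted p = 0.00359). In both genes all Rrp6 exo- values exceeded all WT values. SNR44, which lies in an intron of the ribosomal protein gene RPS22B, had 693 and 874 in WT and 233 and 315 in Rrp6 exo- (log2 difference -1.52, SE 0.11, adjusted p = 0.000893). Its host RPS22B fell less, from 5471 and 4012 to 3399.98 and 3134 (log2 difference -0.52, SE 0.10, adjusted p = 0.0212; adjusted p = 0.178 without WT library 1), and reads of a host and its intronic snoRNA may be divided between them by the counting. SNR84 had 32198 and 33278 in WT and 15212 and 19460.4 in Rrp6 exo- (log2 difference -0.93, SE 0.095, adjusted p = 0.0027), again without overlap. SNR33 and SNR191 fell in the same way, from 9775 and 10531 to 5235 and 7184 (log2 difference -0.73, SE 0.11, adjusted p = 0.0111) and from 9708 and 11648 to 4534 and 7253 (log2 difference -0.89, SE 0.14, adjusted p = 0.0133), and both calls held in each of the 6 fits with 1 library left out. With 1 library left out the number of H/ACA genes lower ranged from 6 without WT library 1 to 14 without Rrp6 exo- library 2, and the number higher from 2 without either WT library to 7 without Rrp6 exo- library 1.

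**Figure D2:**
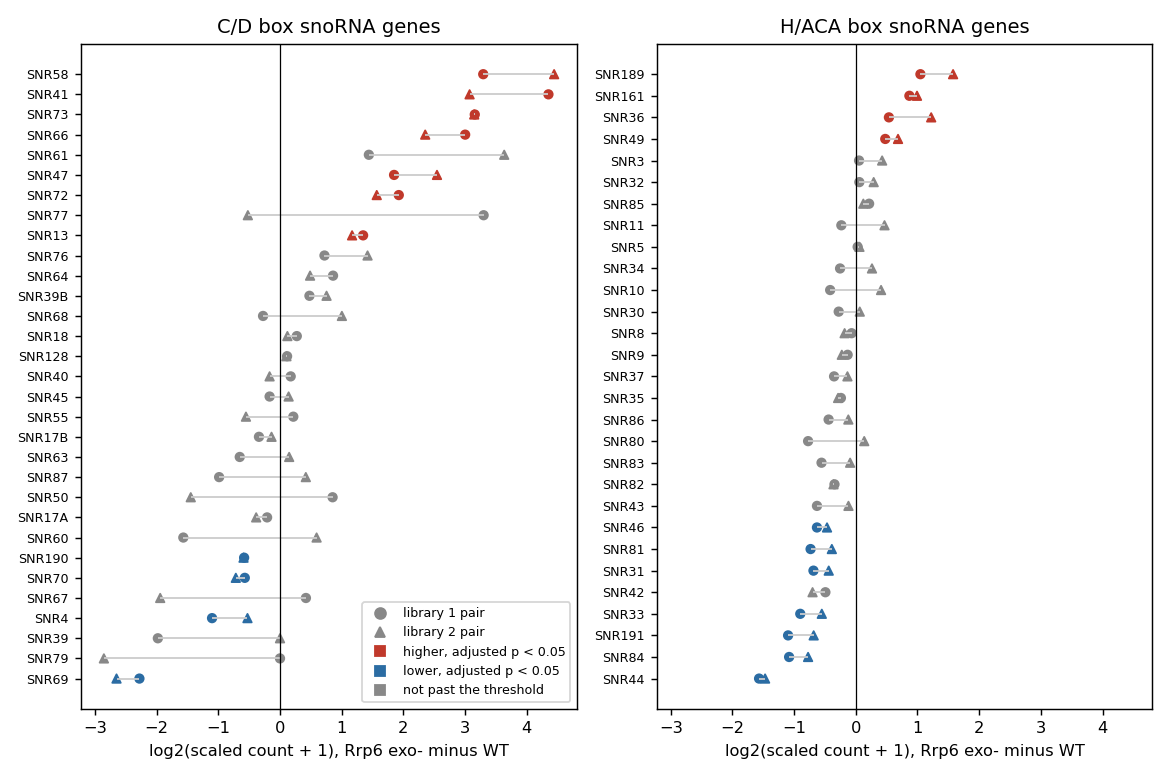
Difference of Rrp6 exo- from WT in log2(scaled count + 1) for the 31 box C/D (left) and 29 box H/ACA (right) snoRNA genes, ordered by the fitted difference. Circles are library 1 of each strain and triangles library 2; red genes were higher and blue genes lower at an adjusted p under 0.05, and grey genes did not pass. SNR73 and SNR66 stand to the right in both pairs, SNR69 and SNR44 to the left, and SNR77 spans 0.

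Genes that follow a snoRNA gene on the same strand were looked at because termination of snoRNA transcription and trimming of its 3′ end involve the same complexes. For 31 snoRNA genes the next annotated gene on the strand began within 1000 bases and was a listed gene other than a snoRNA. Of these 31 followers, 5 rose (16.1%, against 5.70% of all genes) and 2 fell (6.45%, against 7.04%), with a median difference of 0.04, so most followers did not pass. YDR042C, an uncharacterized gene that starts 398 bases after SNR47, had 361 and 297 in WT and 951 and 1115 in Rrp6 exo-, 3.13-fold higher (log2 difference 1.65, SE 0.13, adjusted p = 0.00129), with 1109 and 1060.3 in rrp6Δ. RGT1, a glucose-responsive repressor of hexose transporter genes, starts 728 bases after SNR69 and had 5646 and 6369 in WT and 9705 and 10593 in Rrp6 exo- (log2 difference 0.76, SE 0.067, adjusted p = 0.00134). Both genes were higher in each Rrp6 exo- library than in each WT library. RGT1 rose although SNR69 fell, whereas YDR042C and SNR47 both rose.

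The other risers after a snoRNA gene had smaller differences (0.61, 0.48 and 0.32), and the 2 followers that fell had differences of -0.44 and -0.26. FLX1, a mitochondrial carrier protein, had 835 and 736 in WT and 1168 and 1227 in Rrp6 exo- (log2 difference 0.61, SE 0.12, adjusted p = 0.0223), and USE1, a SNARE protein of the endoplasmic reticulum, had 1037 and 894 in WT against 1421 and 1263 (log2 difference 0.48, SE 0.088, adjusted p = 0.0176). Neither overlapped, but both calls were lost without WT library 1 or WT library 2, with adjusted p of 0.0893 to 0.103 for FLX1 and 0.0828 to 0.174 for USE1. TRS31, which starts 279 bases after SNR13, had 1761 and 1574 in WT and 1599.9 and 1573 in Rrp6 exo- (log2 difference -0.07, SE 0.081, adjusted p = 0.587), so the values overlapped although SNR13 rose.

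Regulatory noncoding RNAs were higher where they passed the test. Of 11 listed, 3 rose, none fell and 8 did not pass, with a median difference of 0.72, and 1 rose without WT library 1, 2 without WT library 2 or either rrp6Δ library, and 4 without Rrp6 exo- library 1. SRG1, whose transcription across the SER3 promoter represses SER3, had 1291 and 1457 in WT and 2773 and 2911 in Rrp6 exo- (log2 difference 1.05, SE 0.073, adjusted p = 0.000798). SER3, an enzyme of serine synthesis, had 13648 and 14719.9 in WT and 6927 and 8501 in Rrp6 exo- (log2 difference -0.89, SE 0.095, adjusted p = 0.00316). SRG1 rose while SER3 fell, neither overlapped between the strains, and rrp6Δ had 2909 and 3267 for SRG1 and 9447 and 8881 for SER3. The annotated SRG1 (chrV:322212-322762) runs into SER3 (chrV:322686-324095) on the same strand, so reads in the shared stretch may be left out or assigned to either. RME3, which lies antisense to the meiotic gene ZIP2, had 398 and 523 in WT and 729 and 816 in Rrp6 exo- (log2 difference 0.76, SE 0.12, adjusted p = 0.0128; adjusted p = 0.0929 without WT library 1). PWR1, one of the noncoding RNAs upstream of FLO11, had 4.91 and 6.24 in WT and 14.6 and 21.8 in Rrp6 exo- (adjusted p = 0.044) and lost its call in 5 of 6 fits with 1 library left out, with adjusted p up to 0.206. PWR1 overlaps ICR1 on the other strand, as RME3 does ZIP2, and whether the counting used the strand is not given in the sources used here. None of 8 stable noncoding RNAs, such as the spliceosomal RNAs, passed the test.

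A further class stood above the annotated protein-coding genes. The table lists 457 open reading frame names that the R64 annotation used here does not hold, and 66 of these rose and 1 fell, with a median difference of 0.50 against 0.00 for 5730 annotated protein-coding genes, of which 278 rose and 430 fell. Most of these names had low counts, so they were also set beside protein-coding genes of a like mean. At a mean scaled count of 30 to 100, 30 of 102 unannotated names (29.4%) rose, against 14 of 163 protein-coding genes (8.59%). At 100 to 300 the numbers were 17 of 37 (45.9%) and 9 of 332 (2.71%). YAR073W had 90.4 and 110.2 in WT and 507 and 769.7 in Rrp6 exo- (log2 difference 2.63, SE 0.15, adjusted p = 0.000381), and YPL222C-A had 101 and 87.3 in WT against 348 and 404 (log2 difference 1.98, SE 0.16, adjusted p = 0.00129). Both had no overlap, and rrp6Δ had 344 and 402 for YAR073W and 304 and 269 for YPL222C-A. The number of unannotated names that rose ranged from 32 without WT library 2 to 87 without Rrp6 exo- library 1. With DESeq2 39 rose. Coordinates of these names were not available here, so their overlap with annotated genes on either strand was not checked. Whether their reads are divided with near-identical genes was not checked either.

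**Figure D3:**
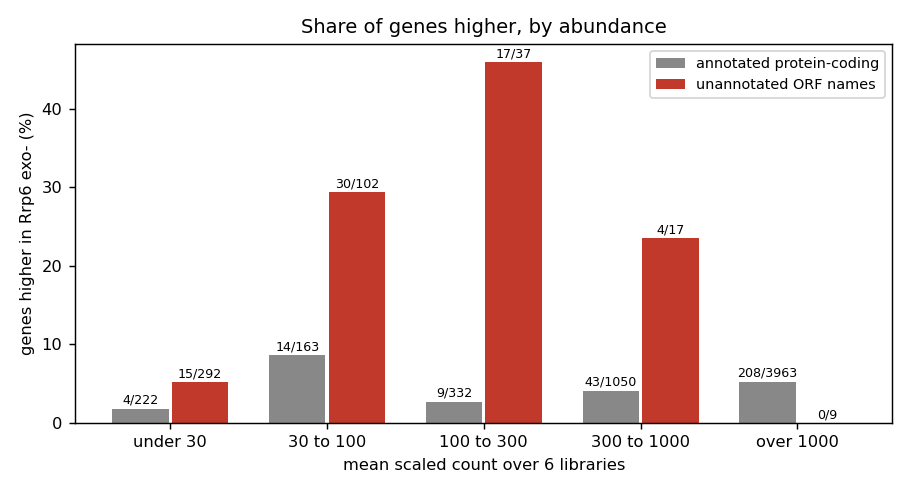
Share of genes (%) higher in Rrp6 exo- at an adjusted p under 0.05, by mean scaled count over the 6 libraries, for annotated protein-coding genes (grey) and open reading frame names not in the annotation (red). Numbers over the bars are genes higher of genes in the bin. The red bars exceed the grey ones up to a mean of 1000, with the widest gap at 100 to 300 (17 of 37 against 9 of 332).

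Several mRNAs with large falls did not belong to a shared pathway. HFM1, a DNA helicase of meiotic crossing over, had 964 and 688 in WT and 62.2 and 62.3 in Rrp6 exo-, 12.9-fold lower (log2 difference -3.69, SE 0.18, adjusted p = 0.000381), with 67.7 and 55.6 in rrp6Δ. GYP5, a GTPase-activating protein of vesicle transport, had 2027 and 2118 in WT and 428 and 477 in Rrp6 exo- (log2 difference -2.19, SE 0.12, adjusted p = 0.000381), with 345 and 479 in rrp6Δ. YNL040W, annotated as a putative alanine-tRNA ligase, had 2520.5 and 2401 in WT against 859.7 and 961 (log2 difference -1.44, SE 0.10, adjusted p = 0.000798), with 936 and 845 in rrp6Δ. In all 3 genes the mutant libraries lay together, well below both WT libraries.

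CYB2, the mitochondrial L-lactate dehydrogenase, had 293 and 578 in WT and 53.4 and 109 in Rrp6 exo- (log2 difference -2.41, SE 0.16, adjusted p = 0.000798). PDR11, a transporter of the ATP-binding cassette family, had 702 and 765 in WT against 260.3 and 345 (log2 difference -1.29, SE 0.12, adjusted p = 0.00207), and the glyoxylate reductase gene YPL113C had 279 and 378 in WT against 88.4 and 182 (log2 difference -1.35, SE 0.18, adjusted p = 0.00617). None of the 3 overlapped, although library 2 was higher than library 1 in both strains for CYB2 and YPL113C. Among 55 genes of meiosis and sporulation 4 rose and 6 fell, with 1 higher without either WT or either rrp6Δ library, up to 7 higher without Rrp6 exo- library 1, and 3 (without WT library 1) to 8 (without either Rrp6 exo- library) lower. Beside HFM1, SPO1 had 229.9 and 267 in WT and 69.9 and 63.4 in Rrp6 exo- (log2 difference -1.88, SE 0.18, adjusted p = 0.00214), and HOP1, a protein of the meiotic chromosome axis, had 297 and 355 in WT against 125 and 129.8 (log2 difference -1.34, SE 0.18, adjusted p = 0.0062). MND1, which acts in meiotic recombination, differed in the other direction, with 57.0 and 72.8 in WT and 177 and 155 in Rrp6 exo- (log2 difference 1.35, SE 0.20, adjusted p = 0.0108). Of the list 7.27% rose and 10.9% fell, against 5.70% and 7.04% of all genes. Its median was 0.03, against 0.01 over all genes.

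Genes of phosphate supply were lower where they passed the test. The transcription factor Pho4 activates some of them when phosphate is scarce and binds CACGTG or CACGTT. The 300 bases before the start codon of the 2 genes with the largest falls are shown, from R64, with these motifs on either strand in capitals.
PHO5: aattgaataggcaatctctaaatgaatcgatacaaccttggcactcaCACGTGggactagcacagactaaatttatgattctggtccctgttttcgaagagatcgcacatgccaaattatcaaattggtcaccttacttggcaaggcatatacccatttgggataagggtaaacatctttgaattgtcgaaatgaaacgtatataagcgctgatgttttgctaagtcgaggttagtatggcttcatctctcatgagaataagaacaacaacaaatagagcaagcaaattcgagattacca
PHO84: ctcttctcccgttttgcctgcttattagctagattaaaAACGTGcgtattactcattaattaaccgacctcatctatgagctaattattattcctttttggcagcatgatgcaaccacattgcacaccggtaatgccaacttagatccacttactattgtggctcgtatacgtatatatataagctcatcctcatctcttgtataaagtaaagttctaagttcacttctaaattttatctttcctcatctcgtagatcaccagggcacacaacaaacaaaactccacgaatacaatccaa
They lie at chrII:430952-431251 and chrXIII:25801-26100, both on the minus strand. The capitals begin 253 bases before the start codon in PHO5 and 262 bases before it in PHO84, where AACGTG is CACGTT on the other strand. CACGTG was in 214 of 6002 windows of this length (3.57%) and in 10 of the 28 genes of the list, and CACGTT was in 553 windows (9.21%) and 6 genes of the list. Of the 16 list genes with either motif 7 fell, and 9 did not pass.

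PHO84, the high-affinity phosphate transporter, had 1401 and 3414 in WT and 33.0 and 553 in Rrp6 exo- (log2 difference -3.99, SE 0.62, adjusted p = 0.0121). Library 2 was higher than library 1 in both strains, and still both Rrp6 exo- values lay below both WT values, as did 226 and 437 in rrp6Δ. PHO84 too overlaps a noncoding RNA on the other strand. PHO5, the secreted acid phosphatase, had 1384 and 2598 in WT and 302 and 376 in Rrp6 exo-, 5.61-fold lower (log2 difference -2.49, SE 0.18, adjusted p = 0.000798), with 295 and 329.7 in rrp6Δ. PHO12, a near-identical copy of PHO11 whose reads may be divided between the copies, had 312 and 448 in WT against 125 and 191 (log2 difference -1.27, SE 0.15, adjusted p = 0.00402), and PHO89, the sodium-phosphate cotransporter, had 373 and 1626 in WT against 60.2 and 738 (log2 difference -1.88, SE 0.31, adjusted p = 0.0136). PHO12 did not overlap, whereas PHO89 did, with library 2 above library 1 in both strains.

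Of the 28 phosphate genes, 10 fell (35.7%, against 7.04% of all genes), 18 did not pass and none rose, with a median difference of -0.17. Among the genes of the polyphosphate polymerase complex VTC3 had 4370.1 and 5299 in WT and 2829.8 and 3445 in Rrp6 exo- (log2 difference -0.62, SE 0.066, adjusted p = 0.00307), VTC1 had a log2 difference of -0.56 (adjusted p = 0.0136) and VTC4 of -0.40 (adjusted p = 0.019). The calls of VTC1 and VTC4 were lost without WT library 1 or WT library 2 (adjusted p of 0.0699 to 0.198). PHO11 (log2 difference -0.75, adjusted p = 0.0387) lost its call without either WT or either rrp6Δ library (0.0526 to 0.328). The count of phosphate genes that fell ranged from 5 without either WT library to 11 without Rrp6 exo- library 2. Under the same total 7 fell and 2 rose.

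Some zinc-responsive genes were higher. Of 18, 5 rose (27.8%, against 5.70% of all genes), 1 fell (5.56%, against 7.04%) and 12 did not pass, with a median of 0.16. ADH4, an alcohol dehydrogenase made under zinc limitation, had 3826 and 3542 in WT and 12605 and 7914 in Rrp6 exo- (log2 difference 1.44, SE 0.15, adjusted p = 0.00285), with 8296 and 8515 in rrp6Δ. ZPS1, a cell wall protein induced by low zinc, had 12896 and 10843 in WT against 20403 and 22949.6 (log2 difference 0.87, SE 0.10, adjusted p = 0.00425). Neither overlapped. ZAP1, the transcription factor that activates the zinc genes, had 11821 and 10814 in WT and 17145 and 15555 in Rrp6 exo- (log2 difference 0.53, SE 0.071, adjusted p = 0.00675; 0.0706 without WT library 1), VEL1 had 59.9 and 56.1 in WT against 161 and 137 (adjusted p = 0.011; 0.0634 without WT library 1) and IZH4 had 1101 and 1269 in WT against 1469 and 2305 (adjusted p = 0.021; 0.115 without WT library 2). The low-affinity zinc transporter ZRT2 had 5473 and 5496 in WT against 3967 and 4705 (log2 difference -0.34, adjusted p = 0.0456), and this call was lost in 5 of 6 fits with 1 library left out, with adjusted p up to 0.269. With 1 library left out from 3 (without WT library 1) to 9 (without Rrp6 exo- library 1) zinc genes rose.

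Some genes of the nuclear RNA-processing machinery were higher. None of 13 exosome and Rrp6-cofactor genes passed (median 0.12, and 2 were higher under the same total). Of 22 TRAMP subunits and other nuclear RNA factors 7 rose (31.8%, against 5.70% of all genes), none fell and 15 did not pass (median 0.22). NRD1, whose mRNA is cut short by its own termination complex, had 11242 and 13561 in WT and 23354 and 29707 in Rrp6 exo-, 2.13-fold higher (log2 difference 1.09, SE 0.079, adjusted p = 0.000806), with 19019 and 20850.4 in rrp6Δ. AIR2, a TRAMP subunit, had 1465 and 1379.8 in WT and 2252 and 2053 in Rrp6 exo- (log2 difference 0.60, SE 0.074, adjusted p = 0.00545), with 2072 and 1959 in rrp6Δ. Every Rrp6 exo- value of these genes exceeded every WT value.

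NAB2, a nuclear poly(A)-binding protein, had 9442 and 10254 in WT and 12503 and 16205 in Rrp6 exo- (log2 difference 0.53, SE 0.088, adjusted p = 0.0136; 0.104 without WT library 2). NAB3, the partner of Nrd1, had 13039.6 and 13905 in WT against 16764 and 17581 (log2 difference 0.35, SE 0.072, adjusted p = 0.0244; 0.279 without WT library 1 and 0.174 without WT library 2). The values did not overlap in either gene. AIR1, RAI1 and PCF11 had smaller differences (0.33, 0.30 and 0.27), and these 3 calls were lost without either WT or either rrp6Δ library (adjusted p of 0.0517 to 0.358), that of PCF11 also without Rrp6 exo- library 2 (0.0555). With 1 library left out the count of higher genes in this list ranged from 2 without WT library 2 to 10 without Rrp6 exo- library 2. Of 18 genes known for early termination or for control by their own product or by an overlapping transcript, 3 rose (NRD1, NAB2 and URA8) and 3 fell (SER3, PHO84 and RPS9B). That is 16.7% in each direction, against 5.70% and 7.04% of all genes. URA8, a CTP synthase, had 4729.6 and 5384 in WT and 6311 and 8850.3 in Rrp6 exo- (log2 difference 0.57, SE 0.10, adjusted p = 0.0159; 0.0761 without WT library 2), and RPS9B lost its call in 5 of 6 fits with 1 library left out.

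Ribosomal protein genes and genes of ribosome assembly moved apart. Of 137 ribosomal protein genes 48 fell and 1, RPL18B, rose, with a median difference of -0.28, and of 98 ribosome biogenesis genes 16 rose and none fell, with a median of 0.18. RPL7B had 3501 and 3265 in WT and 1725 and 1992 in Rrp6 exo- (log2 difference -0.87, SE 0.10, adjusted p = 0.00361), and RPL4B had 19854 and 19214 in WT against 11622 and 13491 (log2 difference -0.64, SE 0.10, adjusted p = 0.0123). DBP2, an RNA helicase, had 11137 and 11114 in WT and 16348 and 16902 in Rrp6 exo- (log2 difference 0.58, SE 0.075, adjusted p = 0.00606), and UTP25, a protein of the small subunit processome, had 3875 and 3228 in WT against 5308 and 4353 (log2 difference 0.44, SE 0.065, adjusted p = 0.00971; 0.073 without WT library 1 and 0.0718 without WT library 2). None of these 4 genes overlapped between the strains. DBP7 and RRP14, both needed for ribosome assembly, rose as well, from 2366 and 1979.7 to 3292 and 2528 (log2 difference 0.41, SE 0.081, adjusted p = 0.0209; 0.218 without WT library 1 and 0.0581 without WT library 2) and from 1147 and 804 to 1715 and 1155 (log2 difference 0.55, SE 0.11, adjusted p = 0.0223; 0.0756 without WT library 1 and 0.158 without WT library 2). The rise of RPL18B (0.39, adjusted p = 0.0208) was lost without either WT library (0.0828 to 0.218). Most ribosomal protein genes come in near-identical pairs, whose reads may be divided between the copies.

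The counts on both ribosomal lists depended on the scaling and on single libraries, while the medians kept their signs. Under the same total 29 ribosomal protein genes fell and 1 rose (median -0.17, where the median of all genes is 0.12), and 40 biogenesis genes rose (median 0.29). The number of ribosomal protein genes that fell was 3 without WT library 1, 5 without WT library 2, 53 without Rrp6 exo- library 1, 95 without Rrp6 exo- library 2, and 18 and 20 without rrp6Δ library 1 and 2. The number of biogenesis genes that rose was 1 without either WT library, 32 and 34 without Rrp6 exo- library 1 and 2, and 4 without either rrp6Δ library. The medians stayed between -0.34 and -0.22 for the first list and between 0.16 and 0.19 for the second over these fits.

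**Figure D4:**
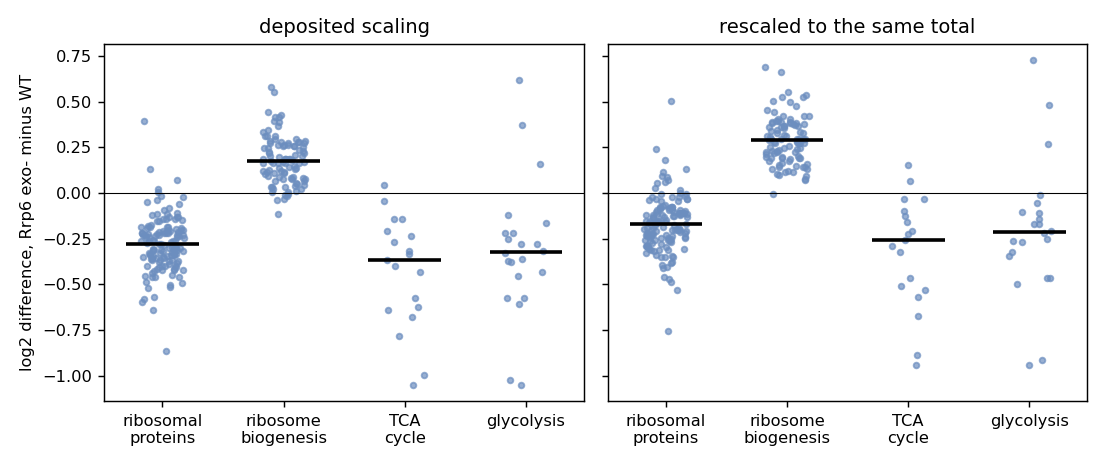
Log2 difference of Rrp6 exo- from WT for each gene of 4 lists (points, spread sideways for clarity) with the median of each list (black bar), under the deposited scaling (left) and after rescaling all libraries to the same total (right). The median lies at -0.28 for ribosomal proteins and 0.18 for ribosome biogenesis on the left, and at -0.17 and 0.29 on the right. The medians of the tricarboxylic acid (TCA) cycle and glycolysis lists lie below 0 in both panels.

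Enzymes of central carbon metabolism were lower where they passed. Of 19 genes of the TCA and glyoxylate cycles 12 fell, none rose and 7 did not pass (median -0.37), and of 22 genes of glycolysis, gluconeogenesis and fermentation (the glycolysis list) 6 fell and none rose (median -0.32). ACO1, the aconitase, had 31264 and 31724 in WT and 18141 and 13688 in Rrp6 exo- (log2 difference -0.999, SE 0.10, adjusted p = 0.00285), with 17049.9 and 14549.7 in rrp6Δ. IDH2, a subunit of isocitrate dehydrogenase, had 15605 and 16813 in WT against 9439 and 9366 (log2 difference -0.78, SE 0.088, adjusted p = 0.00359). Neither overlapped, and both Rrp6 exo- values of ACO1 were near those of rrp6Δ. CIT2, the peroxisomal citrate synthase, had 13751 and 18588 in WT and 7159 and 13880.1 in Rrp6 exo-, which overlapped (log2 difference -0.68, SE 0.12, adjusted p = 0.0145; 0.0867 without WT library 1). ADH1, the main fermentative alcohol dehydrogenase, had 197734 and 210984 in WT and 73749 and 131524 in Rrp6 exo- (log2 difference -1.05, SE 0.20, adjusted p = 0.0206; 0.196 without WT library 1 and 0.0761 without WT library 2). The count of TCA genes that fell ranged from 5 without either WT library to 15 without Rrp6 exo- library 1, and that of glycolysis from 1 without either WT or either rrp6Δ library to 13 without Rrp6 exo- library 2. Under the same total 7 TCA genes fell (median -0.26), and with DESeq2 14 glycolysis genes fell.

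Reserve carbohydrate genes differed widely between the library numbers. GSY1, a glycogen synthase, had 1446 and 12014 in WT, 606 and 5741 in the Rrp6 exo- libraries and 984 and 7116 in the rrp6Δ libraries (log2 difference -1.16, SE 0.10, adjusted p = 0.00129 for Rrp6 exo- against WT). GLC3, the glycogen branching enzyme, had 1524 and 13624 in WT, 700.4 and 6223 with the inactive protein and 1246 and 8243 without it (log2 difference -1.13, SE 0.11, adjusted p = 0.00235). In every strain library 2 was several times above library 1, so the strains overlapped, and the differences exist within a number only. HSP12, a stress protein of membranes, had 1847 and 2330.1 in WT and 10052 and 3877 in Rrp6 exo- (log2 difference 1.59, SE 0.37, adjusted p = 0.0335), without overlap. Rrp6 exo- library 1 was the highest by far, and the call was lost without WT library 1 (0.0929) or either rrp6Δ library (0.0593 to 0.0633). SPI1, a cell wall protein induced in stationary phase, had 1285 and 3668 in WT and 2785 and 5100.4 in Rrp6 exo- (log2 difference 0.80, SE 0.13, adjusted p = 0.0145), which overlapped. The hexose kinase genes HXK1, with 8163 and 36132 in WT and 6113 and 23353 in Rrp6 exo- (log2 difference -0.52, SE 0.077, adjusted p = 0.00972; 0.103 without WT library 2), and GLK1, with 10176 and 32642 in WT against 8392 and 21708 (log2 difference -0.43, SE 0.10, adjusted p = 0.0361; 0.352 without WT library 2 and 0.0537 to 0.058 without either rrp6Δ library), showed the same split by number. Of all genes 5.70% were higher and 7.04% lower. The shares were 7.69% and 15.4% in the general stress list, 0% and 11.1% for heat shock and 4.35% and 21.7% for oxidative stress. Of 39 general stress genes 3 rose and 6 fell, but the pairs went opposite ways, with a median of 0.50 in library 1 and -0.49 in library 2. Without Rrp6 exo- library 1 there were 3 higher and 23 lower, and without Rrp6 exo- library 2 there were 22 higher and 6 lower. Of 27 heat shock genes none rose and 3 fell, with 2 higher and 10 lower without Rrp6 exo- library 1 and 8 and 5 without Rrp6 exo- library 2. Of 23 genes against oxidative stress 1 rose and 5 fell, with no call without either WT library. GLR1, the glutathione reductase, fell from 5991 and 5802 to 4606 and 4415 (log2 difference -0.39, SE 0.064, adjusted p = 0.0136), and the peroxiredoxin TSA1 from 30036 and 33801 to 22467 and 25998 (log2 difference -0.40, SE 0.077, adjusted p = 0.0205), both without overlap, and both calls were lost without either WT library (0.111 to 0.23).

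Several lists of metabolism and protein folding held more falls than rises under the deposited scaling, as did all genes (442 falls and 358 rises). Amino acid synthesis had 4 higher (6.35%) and 10 lower (15.9%) of 63, and sulfur and methionine metabolism 2 (6.25%) and 9 (28.1%) of 32. Ergosterol synthesis had 1 (3.85%) and 9 (34.6%) of 26, and nitrogen catabolite genes 2 (6.45%) and 6 (19.4%) of 31. Protein folding in the endoplasmic reticulum had 0 and 5 (26.3%) of 19. Over all genes 5.70% were higher and 7.04% lower. GDH1, the glutamate dehydrogenase, had 23755 and 21614 in WT and 14363 and 11995 in Rrp6 exo- (log2 difference -0.79, SE 0.073, adjusted p = 0.00162), and GAP1, the general amino acid permease, had 6783 and 6526 in WT against 3824 and 3710.5 (log2 difference -0.82, SE 0.072, adjusted p = 0.00134). UGA1, the 4-aminobutyrate transaminase, had 3727 and 5251 in WT against 2561 and 2982 (log2 difference -0.68, SE 0.085, adjusted p = 0.0055). OPI3, which makes phosphatidylcholine, had 7746 and 8704 in WT against 4447 and 5821 (log2 difference -0.69, SE 0.083, adjusted p = 0.00467), and EUG1, a protein disulfide isomerase, had 5068 and 5535 in WT against 3497 and 3343 (log2 difference -0.63, SE 0.083, adjusted p = 0.0062). All 5 genes were lower in each Rrp6 exo- library than in each WT library. In the amino acid list GLN1, the glutamine synthetase, fell from 58199 and 54591 to 37556 and 40276 (log2 difference -0.54, SE 0.10, adjusted p = 0.0162; 0.204 without WT library 1 and 0.154 without WT library 2), whereas LYS1, the last enzyme of lysine synthesis, rose from 8993 and 8320.2 to 13255 and 11368 (log2 difference 0.50, SE 0.075, adjusted p = 0.0101; 0.0981 without WT library 1). CAR1, the arginase, fell from 6007 and 5621 to 3334 and 4282 (log2 difference -0.62, SE 0.11, adjusted p = 0.0145; 0.0864 without WT library 1). Neither these genes nor the ergosterol genes ERG10, ERG26 and ERG4 overlapped between the strains. The differences of ERG10, ERG26 and ERG4 were -0.45, -0.38 and -0.37, and their calls were lost without either WT library (0.0879 to 0.184). SSC1, the mitochondrial Hsp70, fell by 0.55 (adjusted p = 0.0109; 0.133 without WT library 2) and FTR1, the high-affinity iron permease, by 0.64 (adjusted p = 0.0147; 0.0692 without WT library 1).

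These counts were small enough to turn on 1 library. The number of genes that fell was 3, 2, 9, 21, 4 and 4 for amino acid synthesis with WT library 1, WT library 2, Rrp6 exo- library 1, Rrp6 exo- library 2, rrp6Δ library 1 and rrp6Δ library 2 left out in turn. In the same order it was 3, 0, 14, 12, 2 and 2 for sulfur metabolism, 0, 0, 7, 16, 4 and 4 for ergosterol and 2, 4, 10, 9, 5 and 5 for nitrogen catabolite genes. Genes of protein folding in the endoplasmic reticulum that fell numbered 1 without either WT or either rrp6Δ library, 4 without Rrp6 exo- library 1 and 8 without Rrp6 exo- library 2. Under the same total the order of higher and lower turned for amino acid synthesis, with 9 higher and 7 lower, and without Rrp6 exo- library 1 they were 9 and 9. The same total gave 2 higher and 4 lower for sulfur metabolism, 1 and 4 for ergosterol synthesis, 3 and 5 for nitrogen catabolite genes and 0 and 1 for protein folding.

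Flocculin and COS genes that passed mostly rose, whereas a list of other cell wall genes held 1 rise and 1 fall. FLO1, a flocculin, had 714 and 826 in WT and 1669.9 and 2204 in Rrp6 exo- (log2 difference 1.32, SE 0.10, adjusted p = 0.000893), with 1441 and 1517 in rrp6Δ, and FLO5 had 1494 and 1799 in WT against 2421 and 2884 (log2 difference 0.69, SE 0.083, adjusted p = 0.00471). Both were higher in every Rrp6 exo- library. FLO11, which acts in invasive growth, had 609 and 573 in WT, 868 and 833 in the Rrp6 exo- libraries and 568 and 517 in the rrp6Δ libraries (log2 difference 0.53, SE 0.10, adjusted p = 0.0185; 0.153 without WT library 1 and 0.158 without WT library 2). Of 8 flocculin-related genes 4 rose and 1, FLO9, fell, from 87.4 and 104 to 47.6 and 55.1 (adjusted p = 0.0361; 0.0646 to 0.249 without either WT or either rrp6Δ library). The flocculin genes that rose numbered 2 without WT library 2 and 6 without Rrp6 exo- library 1. TIR4, a cell wall mannoprotein, had 742 and 699.8 in WT and 1334 and 1340.02 in Rrp6 exo- (log2 difference 0.89, SE 0.092, adjusted p = 0.0027), while TIR3 had 561 and 572 in WT against 357 and 364 (log2 difference -0.65, SE 0.11, adjusted p = 0.0147; 0.133 without WT library 1 and 0.117 without WT library 2). Both Rrp6 exo- libraries were above both WT libraries for TIR4 and below them for TIR3. These were the only calls among 20 cell wall genes of the TIR, DAN and PAU list. They make 5% higher and 5% lower, against 5.70% and 7.04% of all genes. FLO1, FLO5 and FLO9 have near-identical stretches, and so do the COS genes, so their reads may be divided.

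COS4 had 88.4 and 114 in WT and 253 and 348 in Rrp6 exo- (log2 difference 1.55, SE 0.17, adjusted p = 0.00359), with 245 and 238 in rrp6Δ. COS10 had 1386 and 1387 in WT against 2148 and 2794 (log2 difference 0.82, SE 0.10, adjusted p = 0.00553), and COS6 had 4572 and 5514 in WT against 6221 and 7382 (log2 difference 0.43, SE 0.064, adjusted p = 0.00972; 0.0893 without WT library 1 and 0.0683 without WT library 2). These 3 were the members of the 10 COS genes that passed, and none fell. THI7, the thiamine transporter, had 4113 and 4439 in WT, 6926 and 6197 in the Rrp6 exo- libraries and 4664 and 4638 in the rrp6Δ libraries (log2 difference 0.62, SE 0.080, adjusted p = 0.00617), and of 25 genes of thiamine, vitamin B6 and biotin supply 6 rose and 1 fell. Those that rose numbered 1 without WT library 1, 2 without WT library 2, 3 without either rrp6Δ library and 7 without either Rrp6 exo- library, and the fall held only without Rrp6 exo- library 2. LEU2, the marker of an MTR4 plasmid, had 50716 and 58895 in WT and 42296 and 43466 in Rrp6 exo- (adjusted p = 0.0456), and this call was lost without either WT or either rrp6Δ library (0.0813 to 0.493).

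**Figure D5:**
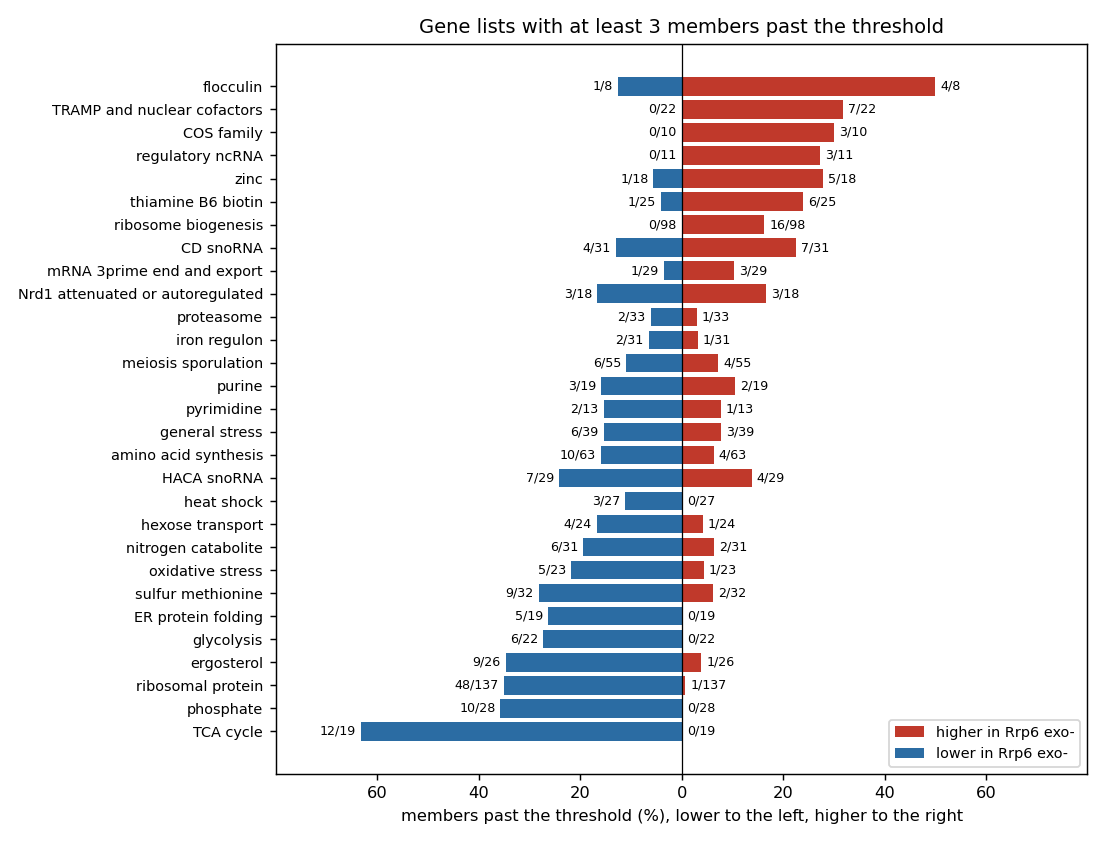
Share of the members of each gene list (%) higher (red, to the right) or lower (blue, to the left) in Rrp6 exo- at an adjusted p under 0.05, for the lists with at least 3 such members. The labels give members called of members listed, for example 12 of 19 lower for the TCA cycle, 48 of 137 lower for ribosomal proteins and 16 of 98 higher for ribosome biogenesis. Over all genes 5.70% were higher and 7.04% lower.

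In 7 of the 47 lists no gene passed: exosome subunits, cytoplasmic decay, stable noncoding RNAs, mating type genes, the mitochondrial genome, DNA replication with entry into S phase, and tRNA synthesis. These lists hold 143 genes, of which 23 had an unadjusted p under 0.05 with limma, while edgeR called 1, in the tRNA list, and DESeq2 called none. Of the 44 nuclear genes of respiration 1 fell, namely CYC1, the main cytochrome c, with 1147 and 1068 in WT and 718 and 718 in Rrp6 exo- (log2 difference -0.62, SE 0.10, adjusted p = 0.012; 0.109 without WT library 1), and of 66 mitochondrial ribosomal protein genes 2 fell. These counts rest on single libraries too: without Rrp6 exo- library 1, 19 respiration genes and 10 mitochondrial ribosomal protein genes were lower, and without Rrp6 exo- library 2, 10 respiration genes were higher and 2 lower and 9 mitochondrial ribosomal protein genes were lower. The median difference of the respiration genes was 0.17 in library 1 and -0.27 in library 2.

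The inactive protein was last set against the absent protein. Compared directly in the same fit, 2 genes (0.0319%) differed between Rrp6 exo- and rrp6Δ, namely RRP6 itself and the mitochondrial ATP6, and a difference that misses the threshold does not show that the strains act alike. Both strains were set against the same WT libraries, so their differences from WT are not independent. Side by side, the log2 difference from WT was -3.69 in Rrp6 exo- and -3.71 in rrp6Δ for HFM1, -2.49 and -2.60 for PHO5, and 1.05 and 1.17 for SRG1. For NRD1 it was 1.09 and 0.69, for SNR73 3.15 and 3.64, for DBP2 0.58 and 0.16, and for THI7 0.62 and 0.12. HFM1, PHO5 and SRG1 thus had nearly the same size in both strains, NRD1, DBP2 and THI7 were larger in Rrp6 exo-, and SNR73 was larger in rrp6Δ, with none of these direct differences past the threshold.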

How the data were processed

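Total RNA depleted of ribosomal RNA was sequenced as stranded paired reads from 6 libraries, 2 clones for each of 3 strains. The authors aligned the reads to the sacCer3 genome with STAR, counted reads per gene with HTSeq 0.5.3 (Picard 1.124 served for alignment files) and divided the counts by DESeq size factors. The deposited values are these scaled counts, a signal that is not whole. Whole read counts were recovered from the step between values, and 100% of the values were whole within 0.001 of a read. Depth was 34188755 to 39501874 reads on genes per library. Counting error is thus small for most genes, and duplicate reads were not identified.

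Differences were fitted to log2(scaled count + 1) by limma 3.58.1 under R 4.3.3, using a variance trend, all 6 libraries, strain and library number as terms, 2 residual degrees of freedom and Benjamini-Hochberg adjustment over 6277 genes, 2-sided. Genes needed a summed scaled count of 10, which all reached. Folds are 2 to the power of the fitted difference. The number was in the fit because the comparison was set within a number. Computed after the fits, the differences between library 2 and library 1 correlated across genes between the strains. Pearson r was 0.55 for WT and Rrp6 exo-, 0.59 for WT and rrp6Δ, and 0.46 for Rrp6 exo- and rrp6Δ. Genes are not independent replicates. The replicates of a strain differed by far more than counting error (the chi-square of their reads was 80.1 to 121.5 times its degrees of freedom), so none was a repeat deposit. Alternatives were edgeR 4.0.16 and DESeq2 1.42.0 on the recovered reads, no library number, other pseudocounts (0.5 and 10), filters and scalings, no variance trend, only the 4 libraries compared, and each library left out (1 residual degree of freedom, with the lone library assumed to vary like the others).

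The comparison, the gene lists and the genes named were chosen with earlier results of these data known. Named genes were the 12 largest rises and falls that separated all libraries and had a mean of at least 50 in the higher strain, genes called without the library number, up to 4 called members of each list with that mean, the strain check genes, and those the study names. Other genes (PHO11, VTC1, VTC3, VTC4, ZAP1, ZRT2, PWR1, SNR4, SNR33, SNR41, SNR58, SNR70, SNR72, SNR190, SNR191, RPS22B, RPS9B, RPL18B, AIR1, RAI1, FLX1, USE1, TRS31, ATP6 and some list members) were chosen after their values were seen. Gene names, coordinates and sequences are from RefSeq for R64, which is the build of sacCer3, and 5818 of 6277 identifiers matched.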

Additional observations from a re-analysis of the deposited data

How the results depend on the processing

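The number of genes called was the least stable result. Against 800 genes (358 higher, 442 lower), it was 7 (4 and 3) with no replicate block, 520 (194 higher) by DESeq2 with no replicate block, 396 (173 and 223) in the 4 libraries compared, 47 (34 and 13) with no variance trend and 119 (66 and 53) at an adjusted p under 0.01. Rescaling to the same total gave 630 higher and 197 lower. Leaving out 1 library gave 183 to 1730 genes, 104 to 798 higher and 79 to 932 lower, fewest without WT library 2 and most without Rrp6 exo- library 2. With the block, edgeR called 797 and DESeq2 830, and other pseudocounts, filters or the upper quartile gave 792 to 911. With no replicate block, no variance trend, no filter, only the 4 libraries compared or an rrp6Δ library left out, limma fits the same difference. Direction could not turn in those fits, and many named genes were chosen for separating all libraries. The 106 named genes that passed kept their direction in all 18 of these fits, which was thus partly fixed in advance. Of them 7 still passed with no replicate block, 104 by edgeR, 100 by DESeq2, 98 under the same total, 19 with no variance trend, 64 without WT library 1, 68 without WT library 2, and 94 or more without any other library. Directions turned only for named genes that did not pass. Over the fits with 1 library left out SNR67 went from -1.83 to 0.30 and SNR55 from -0.69 to 0.36 (both highest without Rrp6 exo- library 2), SNR77 from -0.14 (without Rrp6 exo- library 1) to 2.92, and RRP6 from -0.24 to 0.13, being above 0 without WT library 1 and, at 0.10, without Rrp6 exo- library 2. Under the same total RRP6 was at 0.058 and TRS31 at 0.040. The cause of these changes was not tested. Depth limits the genes with few reads, such as SNR41, SNR58, SNR47 and PWR1. With 2 clones per strain, culture, clone and library cannot be told apart.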
